A study of Mus musculus with 5 samples.

Results

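The 9 genes described here are 6 CXC chemokine ligands (Cxcl1, Cxcl2, Cxcl3, Cxcl9, Cxcl10 and Cxcl16) and 3 chemokine receptors of macrophages and monocytes (Ccr1, Ccr2 and Cx3cr1). They were chosen by symbol, and all 9 had a row among the 24419 gene rows of the deposited table. RNA came from bone marrow-derived macrophages (BMMs) of C57BL6/J mice (C57BL/6 in the sample labels), cells grown from marrow for 5 days in 50 ng/ml M-CSF, the growth factor of macrophages. All 5 samples had been activated with 100 ng/ml LPS, a bacterial cell wall component, and were then cultured for 18 h, 2 with PBS and 3 with 100 ng/ml recombinant Semaphorin 3G (Sema3G). The recombinant Sema3G carried an Fc tag and was purified from a human kidney cell line. The controls are called PBS in the deposited values and no treatment in the sample titles. With either, Sema3G, its tag and anything purified with it cannot be told apart. The labels do not say whether the samples of a group came from separate mice or cultures, and p-values here measure the spread between these samples, which may be technical.

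Chemokines are small secreted proteins that guide the movement of leukocytes through receptors coupled to G proteins. Cxcl1, Cxcl2 and Cxcl3 carry the glutamate-leucine-arginine (ELR) motif and attract neutrophils through the receptor Cxcr2, and macrophages make them early after LPS. Cxcl9 and Cxcl10 are induced by interferons and attract activated T cells and NK cells through Cxcr3. Cxcl16 is made as a membrane protein that binds Cxcr6 and can also take up lipids as a scavenger receptor. Ccr1 and Ccr2 are receptors of CC chemokines, with Ccr2 best known for bringing inflammatory monocytes to tissue, and Cx3cr1 is the receptor of fractalkine, the product of Cx3cl1.

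Cxcl1, Cxcl2 and Cxcl3 lie on the plus strand of chromosome 5 in GRCm38 (GENCODE M21). Cxcl3 spans 90786103 to 90789600, Cxcl1 90891241 to 90893115 and Cxcl2 90903871 to 90905938, so that 10756 bp separate Cxcl1 from Cxcl2. Cxcl3 lies 101641 bp from Cxcl1. Their promoters are shown because these 3 related genes varied together between libraries, as described further on, although Cx3cr1 on chromosome 9 varied like them. Pf4, which lies beside Cxcl3 at 90772435 to 90773383, was also lowest in replicate 1 of both groups, but by less. Its ratio of replicate 2 to replicate 1 was 1.13 within PBS and 1.27 within Sema3G. The table of RefSeq promoters (GRCm38.p6) held 8 of the 9 genes, each with 250 bases before and 50 after the start used there. That start can differ from the start of the GENCODE model. The Ccr2 window begins at 124101933 and its GENCODE model at 124101950. The Cx3cr1 window, 120068247 to 120068546, lies wholly within its GENCODE model, 119901616 to 120069879. Capitals mark the only unbroken runs of 11 or more bases that the 3 promoters share on the strand of the gene, GGGAATTTCCC and CTCCAGACTCCAG, which do not overlap each other. The first holds the letters of the κB motif, the DNA sequence bound by NF-kB, a transcription factor that LPS activates. Each sequence is written 5′ to 3′ on the strand of its gene.
Cxcl1, chr5:90890995-90891294, plus strand: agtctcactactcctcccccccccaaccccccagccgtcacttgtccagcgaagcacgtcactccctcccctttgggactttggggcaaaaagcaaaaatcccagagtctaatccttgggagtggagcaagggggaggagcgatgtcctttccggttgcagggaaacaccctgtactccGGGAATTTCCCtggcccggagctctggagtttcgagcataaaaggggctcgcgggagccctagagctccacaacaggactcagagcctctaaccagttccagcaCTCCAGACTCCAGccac
Cxcl2, chr5:90903649-90903948, plus strand: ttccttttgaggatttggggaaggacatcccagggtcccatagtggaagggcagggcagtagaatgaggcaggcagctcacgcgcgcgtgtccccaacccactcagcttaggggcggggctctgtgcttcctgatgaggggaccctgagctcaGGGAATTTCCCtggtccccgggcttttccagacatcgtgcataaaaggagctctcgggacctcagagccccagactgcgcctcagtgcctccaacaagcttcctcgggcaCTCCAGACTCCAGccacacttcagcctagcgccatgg
Cxcl3, chr5:90785851-90786150, plus strand: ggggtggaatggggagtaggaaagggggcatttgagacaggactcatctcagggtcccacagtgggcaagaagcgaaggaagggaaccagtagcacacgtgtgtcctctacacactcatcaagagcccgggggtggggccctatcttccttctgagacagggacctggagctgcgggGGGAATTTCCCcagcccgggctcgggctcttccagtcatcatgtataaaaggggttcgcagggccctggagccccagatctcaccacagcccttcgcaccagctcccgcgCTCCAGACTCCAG

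GGGAATTTCCC ended 61, 87 and 63 bases before the starts of Cxcl1, Cxcl2 and Cxcl3 used for the windows. These windows were not placed on the GENCODE starts given above, so the distances do not hold from those. Searched on both strands, it was present in 14 of all 32851 promoters of the same length (0.0426%). CTCCAGACTCCAG lay after the start in all 3 genes, within the transcribed stretch of the window, and was present in 4 promoters (0.0122%). Since the runs were picked because these 3 promoters share them, the shares are a description of how rare the letters are. Cxcl10 spans 92346638 to 92348889 on the minus strand of chromosome 5, and Cxcl9 lies beside it on the same strand from 92321347 to 92328079. Neither run was found in the windows of Cxcl9, Cxcl10, Ccr1, Ccr2 and Cx3cr1.

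The libraries held between 1798469 and 2215855 UMIs (unique molecular identifiers, which count each RNA molecule once), and 3 UMIs, the floor used here, corresponded to between 1.35 and 1.67 CPM (UMI counts scaled to the same total in every library). In the PBS libraries the ribosomal RNA precursor gene Rn45s took between 1.01% and 3.19% of the total, and in the Sema3G libraries between 6.31% and 7.88%. Rn45s enters the CPM of every other gene, as do the UMIs outside the listed rows. The listed rows, Rn45s among them, held between 75.6% and 77.6% of the total in PBS and between 65.9% and 71.3% in Sema3G libraries. The median log2 fold change of all genes tested was -0.22, or -0.036 with TMM scaling. The part of each in this shift was not tested. CPM recomputed on listed genes except Rn45s, leaving out both Rn45s and the UMIs outside the listed rows, gave a median of 0.043. Of 8 macrophage markers, 7 were above the floor in every library, and the 8 had a summed level of 9761 to 12570 CPM in PBS and 8860 to 9518 CPM in Sema3G libraries. The exception, Mertk, was below the floor in both PBS libraries (2 and 0 UMIs) and just above it with Sema3G (5, 4 and 5 UMIs). The 8 neutrophil markers with a row had a summed level of 116 to 169 CPM in PBS and 103 to 133 CPM in Sema3G libraries, most of it S100a8 at 102 to 165 CPM. The neutrophil markers Elane, Ngp and Cxcr2 were at 0 UMIs in all libraries, as were 4 of 6 dendritic cell markers, 5 of 6 T and NK cell markers and 3 of 4 B cell markers. The 7 stromal and endothelial markers had a summed level of 21.4 to 50.5 CPM in PBS and 16.7 to 37.8 CPM in Sema3G libraries. Because bulk RNA was measured, fewer cells of a type and less RNA per cell cannot be told apart.

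The chemokine genes fell into a high, a middle and a barely detected class. The libraries read 1 fragment from the 3′ end of each RNA, so the CPM does not grow with RNA length and levels were compared between genes without dividing by it. In PBS, Cxcl16 was the most abundant of the 9 at 627 ± 50.2 CPM (SD, n = 2), followed by Cxcl2 at 290 ± 140 CPM (SD, n = 2) and Ccr1 at 56.7 ± 0.110 CPM (SD, n = 2), and the ranges of these neighbours did not overlap. Cxcl3, Cx3cr1 and Cxcl1 came next, each overlapping its neighbour in the order, and then Ccr2 at 4.08 ± 1.23 CPM (SD, n = 2). In Sema3G the means of Cxcl16 and Cxcl2 were nearly equal, at 483 ± 47.7 and 482 ± 239 CPM (SD, n = 3), and their ranges overlapped. Cxcl16 was above Cxcl2 in both PBS libraries and in 1 of 3 Sema3G libraries. Cxcl16 and Cxcl2 were above 98.8% and 98.2% of the 10088 genes tested in their mean level over the 5 libraries, and Ccr2 was above 19.0%.

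**Figure D1:**
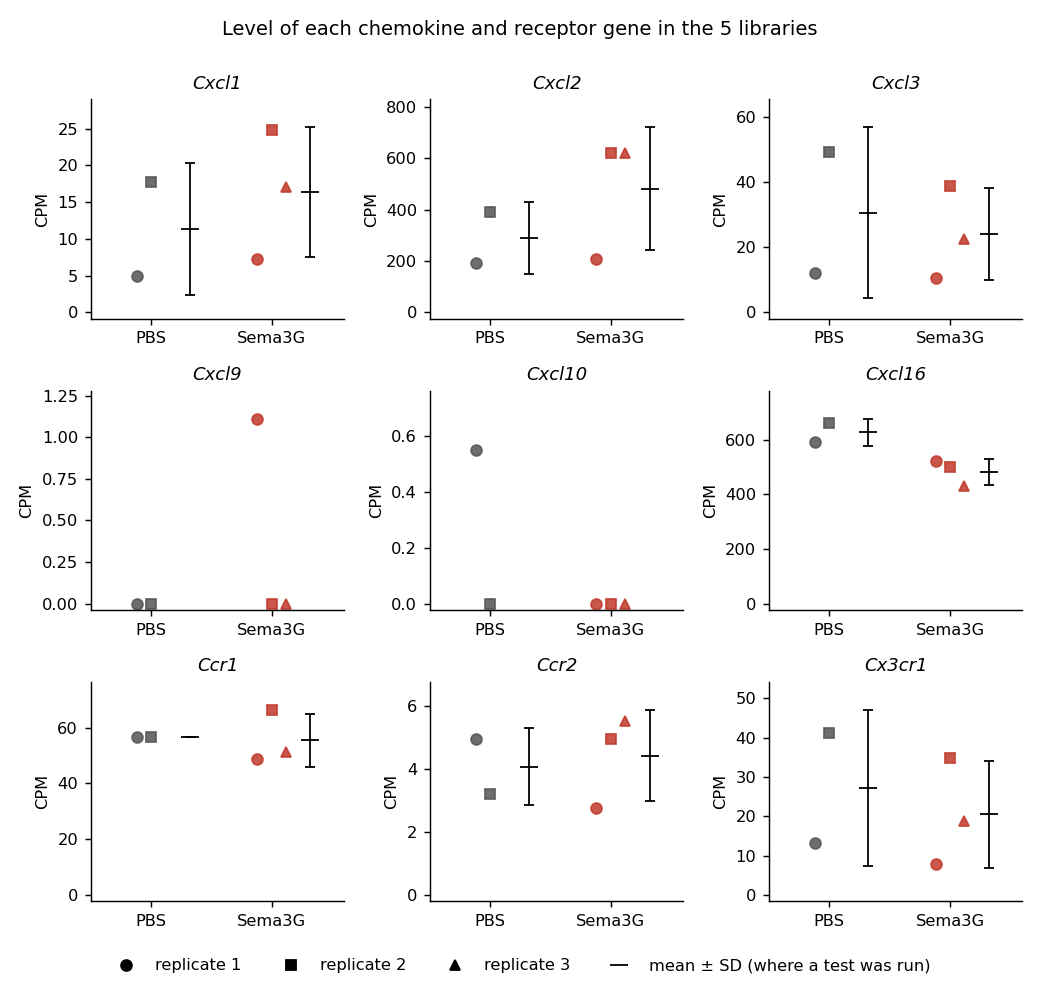
Level of each of the 9 genes in CPM (vertical axis, linear, from 0) in the PBS (grey) and Sema3G (red) libraries, with the shape giving the replicate number and the bar the mean ± SD where a test was run. Cxcl1, Cxcl2, Cxcl3 and Cx3cr1 had their lowest value of each group in replicate 1, Cxcl16 had its 3 lowest values with Sema3G, and Cxcl9 and Cxcl10 stayed at or under 2 UMIs.

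The comparison of Sema3G with PBS asked which genes changed in activated BMMs given Sema3G. None of the 7 members that passed the filter (a mean of at least 1 CPM) changed at an adjusted p below 0.05 in limma on log2(CPM + 1), beside 1.80% of all 10088 genes. Their unadjusted p values in limma were above 0.05 as well, the lowest being 0.0635 for Cxcl16. When UMI counts were recovered from the CPM, edgeR's quasi-likelihood test called 0 of the 6 members it could test, beside 4.10% of 8144 genes, and DESeq2 called 0 of the same 6, beside 3.10% of 7584 genes, since Ccr2 had no adjusted p in either. The median log2 fold change of the 7 genes was -0.043, beside -0.22 for all genes tested. Cxcl9 and Cxcl10 did not pass the filter.

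Cxcl2, whose product attracts neutrophils, was at 191 and 390 CPM in the PBS libraries and at 206, 621 and 620 CPM in the Sema3G libraries, in the order of replicate number. Sema3G replicates 2 and 3 were above both PBS libraries, whereas Sema3G replicate 1 lay just above the lower PBS library, so the groups overlapped. The fitted difference was 0.65 on the log2 scale (standard error 0.36, 95% interval -0.11 to 1.42, limma adjusted p = 0.307), 0.88 above that of the median gene. The outcome of the test depended on which library was left out. Leaving out Sema3G replicate 1 gave 1.18 (limma adjusted p = 0.0169, in a fit that called 8.50% of all genes), and leaving out PBS replicate 1 gave 0.14 (limma adjusted p = 0.892).

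Cxcl1, the nearest paralog of Cxcl2 on the chromosome, was far less abundant. PBS gave 9 and 33 UMIs and Sema3G 13, 55 and 37, which is 11.3 ± 9.0 CPM (SD, n = 2) and 16.4 ± 8.82 CPM (SD, n = 3). Replicate 1 was the lowest of both groups, and the groups overlapped. Its log2 fold change of 0.57 had a standard error of 0.47 and a 95% interval from -0.41 to 1.55 (limma adjusted p = 0.480), and it turned to -0.25 without PBS replicate 1.

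Cxcl3, the third of these neighbours, gave 22 and 92 UMIs under PBS and 19, 86 and 49 under Sema3G, or 30.7 ± 26.3 CPM (SD, n = 2) and 24.0 ± 14.2 CPM (SD, n = 3). It was highest in PBS replicate 2 and lowest in Sema3G replicate 1. Its fitted log2 difference was -0.21 (standard error 0.47, 95% interval -1.20 to 0.77, limma adjusted p = 0.821). Fitted without PBS replicate 1 it was -1.18, and without PBS replicate 2 it was 0.76, and neither passed the threshold.

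Within a library the balance of the 3 ELR ligands does not depend on the scaling of the library. Cxcl2 made up between 85.3% and 94.0% of the summed UMIs of Cxcl1, Cxcl2 and Cxcl3. There were 2.44 and 2.79 Cxcl3 UMIs per Cxcl1 UMI with PBS and 1.46, 1.56 and 1.32 with Sema3G, so that Cxcl3 was lower relative to Cxcl1 in all 3 Sema3G libraries, but the counts were small and the exact binomial 95% intervals, such as 1.08 to 6.03 in PBS replicate 1 and 0.685 to 3.22 in Sema3G replicate 1, overlapped. For each Cxcl3 UMI there were 15.8 and 7.91 Cxcl2 UMIs with PBS and 19.5, 16.0 and 27.4 with Sema3G. The groups did not overlap there either, although PBS replicate 1 and Sema3G replicate 2 were nearly equal and their exact binomial intervals, 10.3 to 25.6 and 12.9 to 20.1, overlapped. The interval of PBS replicate 2, 6.36 to 9.94, lay below those of all other libraries, PBS replicate 1 among them. Each of these ratios gave p = 0.2 in an exact two-sided permutation test, the smallest that 2 libraries against 3 allow, and 0.6 after Benjamini-Hochberg adjustment over the 6 ratios computed, which were chosen after the values had been seen. The ratio of Cxcl2 to Cxcl1 overlapped between the groups. In the annotated transcripts, none of the 40-base stretches in the last 300 bases of Cxcl1, Cxcl2 or Cxcl3 occurred in a transcript of another gene.

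**Figure D2:**
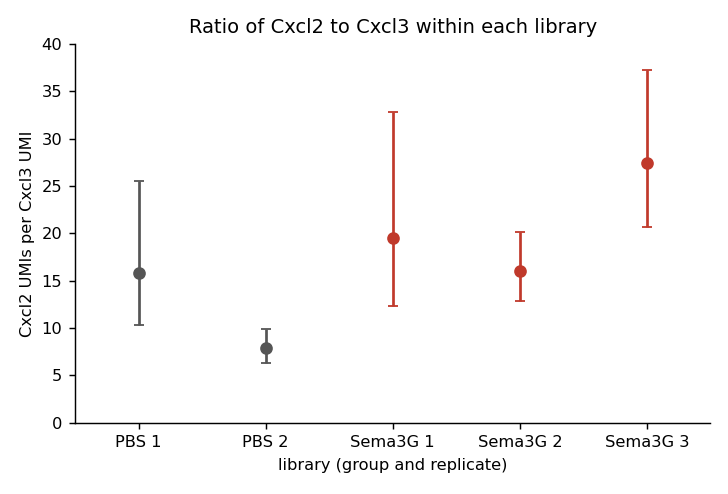
Number of Cxcl2 UMIs per Cxcl3 UMI (vertical axis, linear, from 0) in each library, PBS in grey and Sema3G in red, with exact binomial 95% intervals that cover counting error only. The Sema3G libraries sit between 16.0 and 27.4 and the PBS libraries at 15.8 and 7.91. The interval of PBS replicate 1 overlaps those of all 3 Sema3G libraries, whereas that of PBS replicate 2 lies below those of all other libraries.

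The interferon-inducible ligands Cxcl9 and Cxcl10 were barely detected in these LPS-activated BMMs. Cxcl9 had 0 UMIs in both PBS libraries, 2 in Sema3G replicate 1 and 0 in Sema3G replicates 2 and 3. Cxcl10 had 1 UMI in PBS replicate 1 and 0 in the other 4 libraries. A count of 0 allows up to 1.61 CPM in PBS replicate 2, 1.67 in Sema3G replicate 1, 1.35 in replicate 2 and 1.38 in replicate 3. For each of these 2 ligands all libraries lay below 3 UMIs, so differences under this floor could not have been detected at this depth. A fold change is left out. Cxcl11, the remaining ligand of Cxcr3, had 0 UMIs in all 5 libraries. Cxcl10 lies within Art3, a gene on the other strand that had 0 UMIs in all libraries.

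Cxcl16 was the only one of the 7 tested members whose groups did not overlap. It was at 591 and 662 CPM in the PBS libraries and at 520, 499 and 429 CPM in the Sema3G libraries, so the lowest PBS library was above the highest Sema3G library. This order by itself was common, since 26.5% of all genes tested showed it and another 11.9% showed the reverse. Cxcl16 had a log2 fold change of -0.38 (standard error 0.19, 95% interval -0.78 to 0.02, limma adjusted p = 0.265), or -0.15 once the shift of the median gene is taken off, and it was -0.17 with TMM scaling. It stayed below 0 under all 15 alternatives. Cxcl16 (chromosome 11, 70453983 to 70459984, minus strand) overlaps the start of Zmynd15 on the other strand, which had 135 UMIs over the 5 libraries, whereas Cxcl16 had 931 to 1237 in each.

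Ccr1, a receptor of Ccl3, Ccl5 and related CC chemokines, had the smallest ratio of highest to lowest library of the 7 genes over all 5 libraries (1.36, next to 1.54 for Cxcl16), although within Sema3G that ratio was smaller for Cxcl16 (1.21). It was at 56.6 and 56.7 CPM with PBS and at 48.9, 66.3 and 51.2 CPM with Sema3G. The Sema3G libraries lay on both sides of the PBS libraries. The fitted log2 difference was -0.04 (standard error 0.21, limma adjusted p = 0.927) and turned to 0.16 with TMM scaling, and its 95% interval from -0.48 to 0.40 leaves out a change by 2-fold or more in either direction on this scale.

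Ccr2, the receptor of Ccl2, was rare. Under PBS 9 and 6 UMIs were counted and under Sema3G 5, 11 and 12, or 4.08 ± 1.23 CPM (SD, n = 2) and 4.43 ± 1.45 CPM (SD, n = 3). The groups overlapped, and at these counts the 95% interval of the log2 fold change of 0.08 ran from -0.85 to 1.0 (limma adjusted p = 0.939). Ccr1 and Ccr2 lie on chromosome 9, at 123962124 to 123968692 on the minus strand and 124101950 to 124113557 on the plus strand.

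Cx3cr1 varied more between libraries than between groups. Its UMIs numbered 24 and 77 under PBS and 14, 77 and 41 under Sema3G, or 27.2 ± 19.8 CPM (SD, n = 2) and 20.5 ± 13.6 CPM (SD, n = 3). As for Cxcl1, Cxcl2 and Cxcl3, replicate 1 was the lowest library of each group. Fitted over all 5 libraries, the log2 fold change was -0.41 (standard error 0.47, 95% interval -1.39 to 0.57, limma adjusted p = 0.627). It was -1.20 without PBS replicate 1, 0.38 without PBS replicate 2 and 0.12 without Sema3G replicate 1, and none of these passed the threshold. One annotated model of Cx3cr1 spans 119901616 to 120069879 on chromosome 9 and overlaps other genes, of which Gorasp1, Csrnp1 and Xirp1 on the same strand had 54, 37 and 1 UMIs over the 5 libraries. No 40-base stretch in the last 300 bases of Cxcl9, Cxcl10, Cxcl16, Ccr1, Ccr2 or Cx3cr1 transcripts was shared with another gene.

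A pattern shared by 4 members lay between the replicates. Cxcl1, Cxcl2, Cxcl3 and Cx3cr1 were at least 2-fold higher in replicate 2 than in replicate 1 of both groups, as were 1.31% of all genes tested. Replicate 1 was the lowest library of both groups for these 4 and, by a small margin, for Ccr1, as for 13.8% of all genes. Within PBS the ratio of replicate 2 to replicate 1 was 3.57 for Cxcl1 (exact binomial 95% interval 1.67 to 8.49, counting error only), 2.04 for Cxcl2 (1.79 to 2.32), 4.07 for Cxcl3 (2.54 to 6.82) and 3.13 for Cx3cr1 (1.95 to 5.17). Within Sema3G it was 3.43, 3.01, 3.67 and 4.46, again with intervals above 1. Cxcl16, Ccr1 and Ccr2 did not reach 2-fold in either group, with ratios of 1.12, 1.0 and 0.650 within PBS and of 0.959, 1.36 and 1.79 within Sema3G. For Ccr2 the intervals were wide, 0.190 to 2.04 within PBS and 0.572 to 6.56 within Sema3G. For Cxcl1, Cxcl3 and Cx3cr1 the SD within each group was larger than the difference between the group means. The pattern was noticed in the data and has no test.

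**Figure D3:**
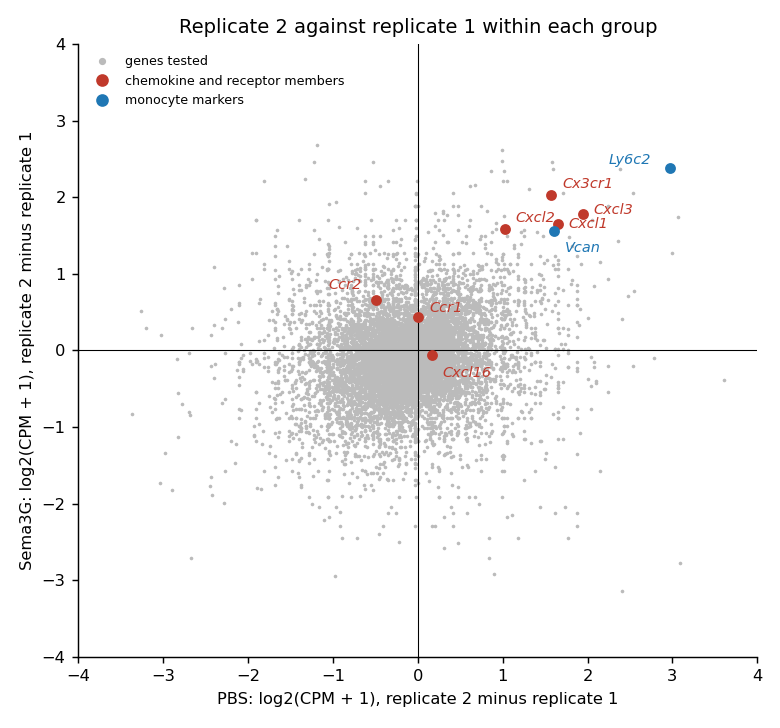
Difference in log2(CPM + 1) between replicate 2 and replicate 1, within PBS on the horizontal axis and within Sema3G on the vertical axis, for the 10088 genes tested (grey), the 7 tested members (red) and the monocyte markers Ly6c2 and Vcan (blue). Cxcl1, Cxcl2, Cxcl3 and Cx3cr1 sit with the monocyte markers at the upper right, whereas Ccr1, Ccr2 and Cxcl16 lie among the other genes.

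Markers of Ly6C-high monocytes moved with this pattern. The summed level of 3 markers was 190.1 and 1031 CPM in the PBS libraries and 210, 757 and 665 CPM in the Sema3G libraries. It came from Ly6c2, at 92.3 and 732 CPM under PBS and 57.8, 306 and 270 CPM under Sema3G, and from Vcan, at 97.2 and 299 CPM under PBS and 152, 451 and 395 CPM under Sema3G. Both were at least 2-fold higher in replicate 2 than in replicate 1 of each group, while Chil3, the remaining marker, had 1 UMI over the 5 libraries. Ccr2, itself a receptor of these monocytes, was lowest in replicate 1 with Sema3G but not with PBS, at 12 UMIs or fewer in each library. Among the markers of other cells, the macrophage marker Cd14 and the neutrophil markers S100a8 and Camp were lowest in replicate 1 of both groups without reaching 2-fold in both. Of 4 stromal and endothelial markers tested, Pecam1 and Col1a2 went the opposite way, at least 2-fold higher in replicate 1 than in replicate 2 of both groups. The part of these markers in the levels of the 4 members was not tested.

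The genes most like each member over the 5 libraries were those with the smallest Euclidean distance between centred log2(CPM + 1) profiles. Cxcl3 and Cx3cr1 were each other's nearest gene among the 4591 other genes averaging 20 CPM or more (distance 0.38), and Wfdc21 and Cav1 came second for them. Vcan was the nearest gene to both Cxcl1 (0.36) and Cxcl2 (0.48), with Pcdh7 and Kdm5b second. Cxcl16 was nearest to Atf4 and Chd3 (0.064 and 0.067), Ccr1 to Vat1 and Fam208a (0.021 and 0.12) and Ccr2 to Aktip and Map2k7 (0.20 and 0.25). With 5 libraries, small distances among so many genes are a description only.

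The receptors for these ligands had few or no UMIs. Cxcr2, the receptor of the ELR ligands, and Cxcr6, the receptor of Cxcl16, had 0 UMIs in all 5 libraries, which allows at most 1.67 CPM in any of them. Cxcr3, the receptor of Cxcl9 and Cxcl10, gave 5 and 3 UMIs under PBS and 9, 4 and 1 under Sema3G. Of 20 other chemokine receptors looked up, 10 had 0 UMIs throughout, 5 could be tested and 0 passed the threshold.

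The ligands of the member receptors were unevenly expressed. Cx3cl1, the ligand of Cx3cr1, had 0 UMIs in all libraries. The Ccr2 ligands Ccl2, Ccl7 and Ccl12 had at most 11, 3 and 1 UMIs in a library. Among the Ccr1 ligands, Ccl9 was at 1032 and 1614 CPM with PBS and 928, 1140 and 974 CPM with Sema3G, and Ccl6 at 466 and 371 CPM with PBS and 398, 349.8 and 403 CPM with Sema3G. Ccl3 was at 20.9 and 33.2 CPM with PBS and 18.9, 21.7 and 21.7 CPM with Sema3G, and Ccl5 at 520 and 210 CPM with PBS and 381, 248 and 139 CPM with Sema3G. Ccl5 was thus highest in replicate 1 of both groups, where Cxcl2 was lowest. Of the 9 ligands in this list 5 could be tested and 0 passed the threshold, with log2 fold changes between -0.48 and -0.12.

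Pf4, named after its values were seen, was by far the most abundant CXC ligand. This platelet factor stood at 4101 and 4619 CPM with PBS and at 2959, 3753 and 3850 CPM with Sema3G. The 3 Sema3G values were the lowest of the 5, and the fitted log2 difference of -0.32 (limma adjusted p = 0.517) shrank to -0.11 with TMM scaling. Of the 9 other CXC ligands 3 had 0 UMIs, 4 could be tested and 0 passed the threshold. Adam10 and Adam17, the proteases that shed Cxcl16 and fractalkine from the cell surface, had 85 to 156 and 689 to 712 UMIs per library, and neither passed the threshold (limma adjusted p = 0.810 and 0.608).

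Of 30 genes of G protein signalling below chemokine receptors, 29 could be tested, 1 rose and 0 fell, beside 1.59% and 0.218% of all genes. Their median log2 fold change was -0.33, beside -0.22 for all genes. The gene that rose was Plcb2, a phospholipase C activated by G protein subunits. PBS gave 3 and 10 UMIs and Sema3G 22, 25 and 30, so the groups were apart. Plcb2 rose by 1.71 on the log2 scale (standard error 0.40, 95% interval 0.86 to 2.56, limma adjusted p = 0.0395). The counts were small and the value depended on the PBS library kept, with a log2 fold change of 1.08 without PBS replicate 1 (limma adjusted p = 0.210) and 2.34 without PBS replicate 2 (limma adjusted p = 0.00513). Without Sema3G replicate 2 or 3 it was 1.77 and 1.64, and the call was lost (limma adjusted p = 0.143 and 0.204). With all libraries the call was also lost, at a similar or larger log2 fold change, with a pseudocount of 0.1 (2.02, limma adjusted p = 0.0514), with no filter (1.71, limma adjusted p = 0.0798), with edgeR scaled by library size only (1.80, adjusted p = 0.0615) and with DESeq2 (2.02, adjusted p = 0.0598). For 10 further genes of the list the Sema3G values all lay below the PBS values without passing the threshold, beside the 26.5% of all genes given above. Without Sema3G replicate 1 the balance of calls over all the pathway lists turned, with 1 gene higher (Plcb2) and 6 lower (Adrbk1, Arrb1, Arrb2, Gnb1, Pik3r5 and Rac2), as it did over all genes, with 303 higher and 553 lower in that fit beside 160 and 22 with all libraries.

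**Figure D4:**
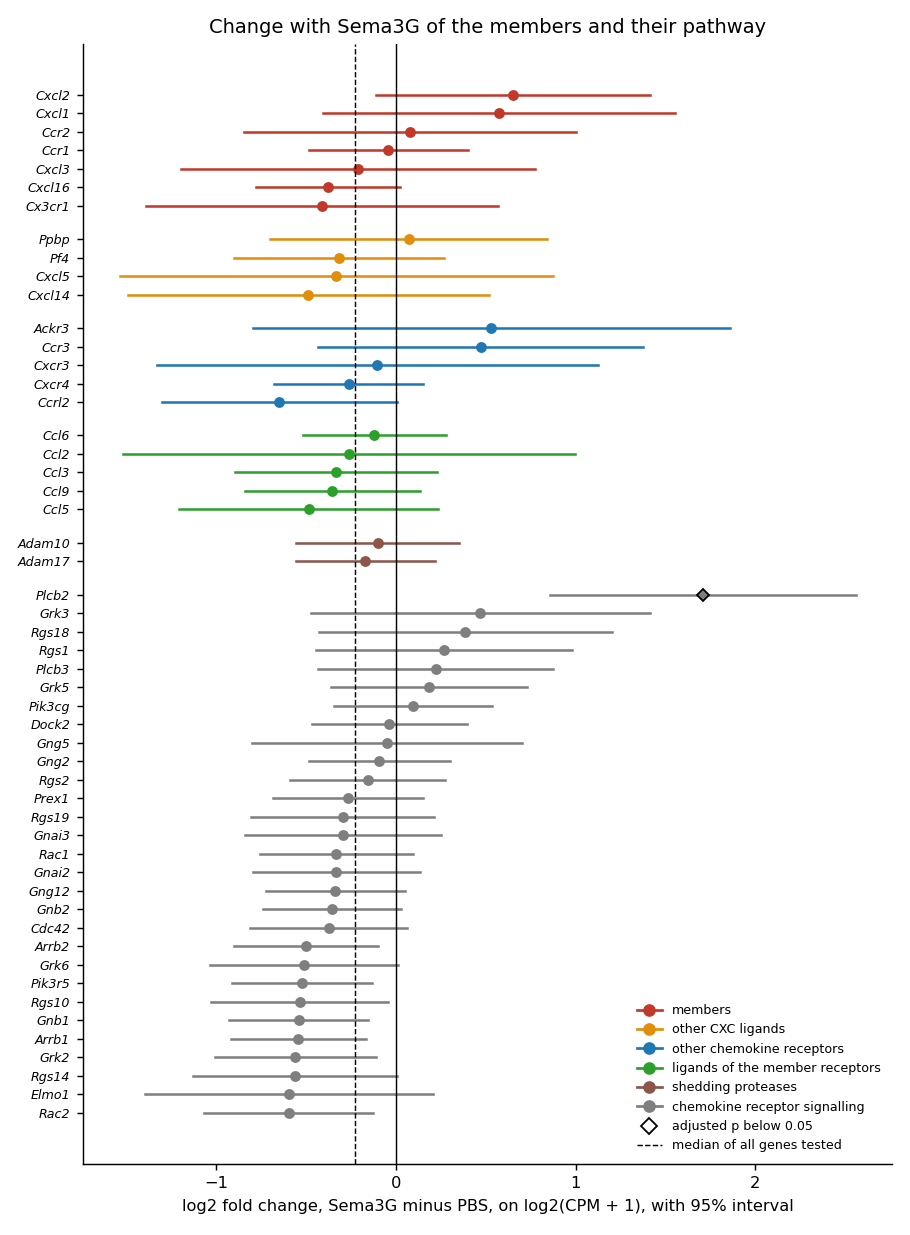
Log2 fold change of Sema3G against PBS on log2(CPM + 1) (horizontal axis) with its 95% interval from limma for the 7 tested members and the 45 tested genes of the pathway lists, coloured by list, with a dashed line at the median of all genes tested (-0.22). Plcb2, the diamond, is the only gene past the adjusted p of 0.05, and the intervals of all 7 members include 0.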

How the data were processed

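RNA-seq libraries of 5 BMM samples (2 PBS, 3 Sema3G) had been made with the QuantSeq 3′ mRNA-Seq FWD kit with UMIs. The authors used Strand NGS for mapping to mm10 and for UMI counting, and normalized with edgeR (3.12 in the submitters' processing notes). For the annotation, strand setting and filters, the sources used here say nothing. Deposited were the authors' CPM values for 24419 rows, with p-values, q-values and ranks from their own comparison, which were not used. The symbols of 27 rows were dates, and none is a member.

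In each library the CPM values were multiples of a single step (100% within 0.01 UMI of a whole number), which gave the UMI counts and totals of 1798469 to 2215855. These totals set the precision, and floors (3 UMIs) and intervals cover counting error only. The 10088 genes averaging 1 CPM or more were tested on log2(CPM + 1) in limma 3.58.1 (R 4.3.3), using its variance trend, and p-values were adjusted over all of them by the Benjamini-Hochberg method. Fold changes on this scale understate those of low genes. edgeR (4.0.16) and DESeq2 (1.42.0) on the recovered counts were alternatives, with other pseudocounts, filters and scalings, the replicate block and each library left out. The tests were checked on simulated data. The members, lists and tests were chosen with earlier results of these data known. Named are the members, their binding partners, the shedding proteases, the list genes past the threshold and the 2 nearest genes of each member, and, beside the results they touch, cell type markers, genes overlapping a member and Rn45s. Pf4 was named after its values were seen. Gene models came from GENCODE M21, on the same build as mm10. 2 genes of the lists are not reported here.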

Additional observations from a re-analysis of the deposited data

How the results depend on the processing

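No member passed the threshold under 14 of 15 alternatives, of which 4 (a minimum mean of 5 CPM, both edgeR fits and DESeq2) gave no adjusted p for Ccr2, and 1 member, Cxcl2, passed without Sema3G replicate 1, so with 1 library left out the number ranged from 0 to 1. The number of pathway genes past it, 1 (Plcb2), was 0 with a pseudocount of 0.1, with DESeq2, with edgeR scaled by library size only and with no filter, and 2 with the replicate block (Arrb1 lower and Plcb2 higher). Dropping 1 library gave 0 to 7, the 7 (1 higher and 6 lower) coming without Sema3G replicate 1 and the 0 without PBS replicate 1, Sema3G replicate 2 or Sema3G replicate 3. Over all genes the count, 182, lay between 26 (Sema3G replicate 2 dropped) and 856 (Sema3G replicate 1 dropped, 303 higher and 553 lower), was 108 with no filter, 325 with TMM scaling (322 higher and 3 lower, beside 160 and 22), 482 (481 higher and 1 lower) with CPM taken over listed genes except Rn45s, which drops Rn45s and the UMIs outside the listed rows together, and 334 with edgeR's quasi-likelihood test, and was 573 with the replicate block (298 higher and 275 lower). The cause was not tested.

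Cxcl2 and Cxcl16 kept their direction under all 15 alternatives, with log2 fold changes from 0.14 to 1.18 and from -0.46 to -0.09. Cxcl1 turned to -0.25 without PBS replicate 1, and with 1 library left out ranged up to 1.4. Cxcl3 turned to 0.068 with CPM taken over listed genes except Rn45s, and ranged from -1.18 to 0.76 with 1 library left out. Cx3cr1 ranged from -1.20 to 0.38 with 1 library left out, and turned above 0 without PBS replicate 2 or Sema3G replicate 1 (0.12). Ccr1 was 0.16 with TMM scaling, 0.24 with CPM taken over listed genes except Rn45s, 0.18 with edgeR's quasi-likelihood test, 0.19 with DESeq2 and 0.0079 with the replicate block, and -0.18 to 0.040 with 1 library left out. Ccr2 was -0.076 with the replicate block and -0.17 to 0.33 with 1 library left out. None of the turned values passed the threshold.

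The replicate numbers are not stated to mark a shared mouse or day. The deviations from the group means correlated at 0.371 between the replicates numbered 1 and 0.306 between those numbered 2, but also at 0.221 between PBS replicate 2 and Sema3G replicate 3, over 4592 genes. The deviations of 2 PBS libraries mirror each other, so this is a hint from the data only, and the block leaves 1 residual degree of freedom. Depth limits Cxcl9, Cxcl10 and Ccr2 most, since 3 UMIs are up to 1.67 CPM. A lone PBS library was assumed to have the spread of the Sema3G libraries.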
